A study of Mus musculus with 2 samples.

Results

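The 10 genes described here encode the core of the NF-kB system: 5 transcription factor subunits (Nfkb1, Nfkb2, Rel, Rela and Relb), 2 inhibitors (Nfkbia and Nfkbie) and 3 kinases (Chuk, Ikbkb and Map3k14). They were taken as every transcript line whose RefSeq accession carries 1 of these symbols, which gave 14 of 30794 lines and 10 of 23123 named genes. RNA came from medullary thymic epithelial cells (mTEC), which line the thymic medulla and show maturing T cells the antigens of other organs. Cells with high surface MHC class II (mTEChi) and with low surface MHC class II (mTEClo) were separated by flow sorting from thymi pooled across wild-type B6 mice, whose age is not given in the labels. Each group is 1 poly(A)-selected library made without strand information, read as pairs of 100 bases for mTEChi and as single reads of 50 bases for mTEClo, so read layout and group coincide. With 1 library per group there is no replicate check and no test, and all differences describe these 2 libraries.

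NF-kB factors are dimers that wait in the cytoplasm until a receptor of the TNF or Toll family is engaged. In the canonical arm the kinase Ikbkb (IKK-beta) marks the inhibitor IkB-alpha for destruction and frees dimers of RelA and c-Rel with p50. In the non-canonical arm the receptors RANK, CD40 and the lymphotoxin beta receptor stabilise the kinase NIK, which acts through Chuk (IKK-alpha) to trim the p100 precursor to p52, the partner of RelB. Mice that lack RelB or functional NIK fail to form a normal thymic medulla, which is why this arm is studied in mTEC. The values below are RNA levels, and neither arm's activity can be read from them.

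Levels are in RPKM, a read number divided by transcript length and sequencing depth, as deposited. Changes are log2 of mTEChi over mTEClo after adding 1 RPKM to both, with mTEClo first multiplied by 1.21 which places the median log2 ratio over 5167 well-expressed genes at 0. The files imply about 115000000 reads for mTEChi and 20900000 for mTEClo. The 10 genes rested on 4697 to 131984 implied reads in mTEChi and on 489 to 9293 in mTEClo. The 95% counting intervals given below are for the ratio without added RPKM. They cover counting error only, and would be too narrow if both mates of a pair were counted. In bulk RNA, fewer cells of a type and less RNA per cell cannot be told apart. The 10 thymic epithelial markers were all detected and summed to 2106 RPKM in mTEChi and 2323 RPKM in mTEClo, with 1 of them, Foxn1 (1.76), 2-fold higher and 3 lower, Krt14 (-1.57), Pax1 (-1.07) and Krt5 (-1.05). The 8 markers of mature mTEC summed to 11714 RPKM in mTEChi and 3649 RPKM in mTEClo. Most of this came from 2 genes of the MHC class II pathway, on which the cells were sorted, so the sums largely restate the sort. H2-Aa had 4908 RPKM in mTEChi and 1524 RPKM in mTEClo, and Cd74 had 6299 RPKM in mTEChi and 2048 RPKM in mTEClo. Aire, the defining regulator of mature mTEC, was higher by 2.61 on the log2 scale.

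Members of the NF-kB core were unevenly different between the libraries. Rel, Nfkb2 and Nfkbia were more than 2-fold higher in mTEChi, and none of the 10 was 2-fold lower. Nfkbie, Ikbkb, Relb and Chuk lay between the midpoint and 2-fold on the higher side. Nfkb1, Rela and Map3k14 lay slightly below the midpoint of all genes, and slightly above 0 for all 3 when no scaling was applied. All 10 genes passed the filter of a mean of 0.5 RPKM. Among the 15590 genes that passed it, 16.1% were at least 2-fold higher in mTEChi and 9.35% at least 2-fold lower. At a mean level of at least 5 RPKM, which all 10 exceed, these shares were 12.1% and 9.87%. Of the 15590 genes, 829 were at 0 in mTEClo, the shallower library. Such genes pass the filter only at an mTEChi level that also makes them 2-fold higher, which raises the share of higher genes. The median change of the 10 genes was 0.59, against 0.03 for all genes that passed. Without scaling, 4 of the 10 were 2-fold higher, Nfkbie being added with 1.09. The 3 genes past 2-fold held that place under every other scaling, and with 5 RPKM added in place of 1 they were 2, as Rel then had 0.89.

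**Figure D1:**
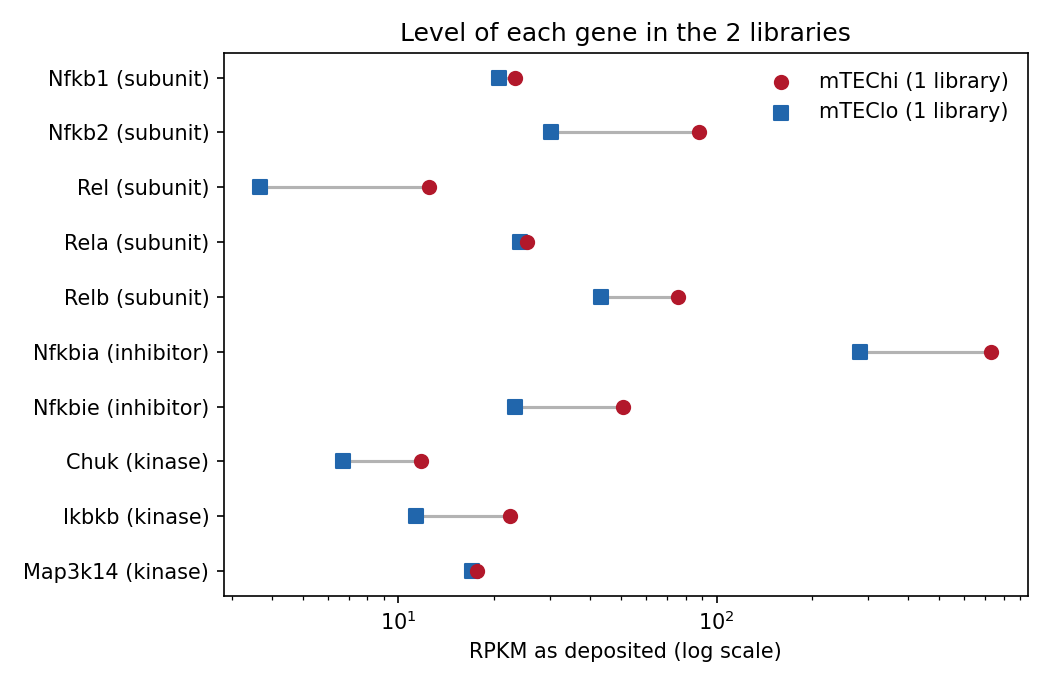
RPKM as deposited (log axis) of each gene in the mTEChi library (circles) and the mTEClo library (squares), 1 library each. Rel, Nfkb2 and Nfkbia have the widest gaps, while the symbols of Nfkb1, Rela and Map3k14 nearly touch.

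Of the subunits, Nfkb2, which encodes p100 and its product p52, was the most abundant in mTEChi. It had 88.2 RPKM in mTEChi and 30.2 RPKM in mTEClo, a log2 change of 1.25 with a counting interval of 1.21 to 1.34. Its level exceeded that of 95.9% of the 15590 genes that passed the filter in mTEChi and of 89.8% in mTEClo. The 3 transcript lines of Nfkb2 gave nearly the same picture, with 83.3 to 88.2 RPKM in mTEChi, 28.1 to 30.2 RPKM in mTEClo and changes of 1.25 to 1.27. In the GRCm38 annotation, 11.6% of the Nfkb2 exon bases lie opposite a non-coding RNA that shares its promoter and 6.52% opposite Psd, and reads without strand cannot separate them. Psd had 7.66 RPKM in mTEChi and 2.99 RPKM in mTEClo, well below Nfkb2 in both libraries.

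Relb, the partner of p52, stood next to Nfkb2 in level. It had 75.6 RPKM in mTEChi and 43.3 RPKM in mTEClo, and its change of 0.52 (interval 0.46 to 0.60) was well short of 2-fold. By the highest transcript line, Relb was the most abundant subunit gene in mTEClo and came after Nfkb2 in mTEChi. The mean of lines gave the same order, with Relb at 35.8% and Nfkb2 at 24.1% of the subunit sum in mTEClo. With lines summed, which counts 3 lines of Nfkb2 and 1 of Relb, Nfkb2 came first in both libraries. The ratio of Nfkb2 to Relb within a library, which does not depend on scaling, was 1.17 in mTEChi and 0.697 in mTEClo, a 1.67-fold difference (counting interval 1.57 to 1.79).

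Rel, which encodes c-Rel, a subunit best known from lymphocytes, had the largest change and the lowest level of the 5. It had 12.5 RPKM in mTEChi and 3.69 RPKM in mTEClo, a change of 1.31, and of 1.49 without added RPKM (interval 1.37 to 1.61). Among the 15590 genes that passed the filter, its level lay above 70.5% in mTEChi and above 42.3% in mTEClo. Markers of dendritic cells and macrophages and of B cells were higher in mTEChi, as Rel was, and those of thymocytes as a list were not. Of 14 measured dendritic cell and macrophage markers, 9 of the 11 that passed the filter were 2-fold higher and 0 lower. They summed to 560 RPKM in mTEChi and 145 RPKM in mTEClo, mostly from Lyz2 with 493 RPKM in mTEChi and 133 RPKM in mTEClo. Values of 0 were more frequent in the shallower library for all genes, with 2815 of 30794 transcript lines in mTEChi and 8637 in mTEClo. Of these markers, Cd209a, Xcr1, Clec9a, Flt3 and Siglech were listed at 0 in mTEClo, and none of the 14 was at 0 in mTEChi, where Clec9a and Siglech had 0.0976 and 0.0981 RPKM. Of 8 B cell markers, 3 of the 5 that passed were 2-fold higher and 0 lower, and the 8 summed to 53.9 RPKM in mTEChi and 17.3 RPKM in mTEClo. Ms4a1, Cd79a, Pax5 and Cd22 were at 0 in mTEClo, with 0.339 to 1.98 RPKM in mTEChi. A gene at 0 in mTEClo passes the filter only at an mTEChi level that also makes it 2-fold higher. The calls of Cd209a, Flt3 and Cd79a, counted above as 2-fold higher, were therefore fixed by the filter. The 10 thymocyte markers summed to 18.2 RPKM in mTEChi and 14.6 RPKM in mTEClo, with 1 of 8 that passed, Cd4, 2-fold higher, 0 lower and Rag2 at 0 in mTEClo. The part of these cells in the change of Rel, or of any other gene here, was not tested.

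Nfkb1 and Rela, the genes of the p50 precursor and of p65, make up the most widely used NF-kB dimer. Nfkb1 had 23.3 RPKM in mTEChi and 20.7 RPKM in mTEClo, and Rela had 25.4 RPKM in mTEChi and 24.1 RPKM in mTEClo. Their changes were -0.10 (interval -0.18 to -0.03) for Nfkb1 and -0.19 (interval -0.28 to -0.12) for Rela, and without scaling these were 0.16 and 0.07. The ratio of Nfkb1 to Rela was 0.918 in mTEChi and 0.86 in mTEClo, which differ 1.07-fold with a counting interval of 0.989 to 1.15 that includes no difference.

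The makeup of the subunit transcripts therefore differed between the libraries. Nfkb2 made up 39.2% of the summed RPKM of the 5 subunit genes in mTEChi and 24.7% in mTEClo. Rela made up 11.3% in mTEChi and 19.8% in mTEClo, and Nfkb1 10.3% in mTEChi and 17.0% in mTEClo. Relb made up 33.6% in mTEChi and 35.5% in mTEClo, and Rel had 5.55% in mTEChi and 3.02% in mTEClo. With transcript lines summed, which counts 3 lines of Nfkb2, Nfkb2 made up 65.4% in mTEChi and 48.8% in mTEClo, and Relb 19.2% in mTEChi and 24.1% in mTEClo. Nfkb2 over Nfkb1 was 3.79 in mTEChi and 1.45 in mTEClo, a 2.61-fold difference (interval 2.44 to 2.79). Relb over Rela was 2.98 in mTEChi and 1.80 in mTEClo, a 1.66-fold difference (interval 1.54 to 1.79). The non-canonical pair Nfkb2 and Relb together was 3.37 times the sum of Nfkb1 and Rela in mTEChi and 1.64 times in mTEClo.

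**Figure D2:**
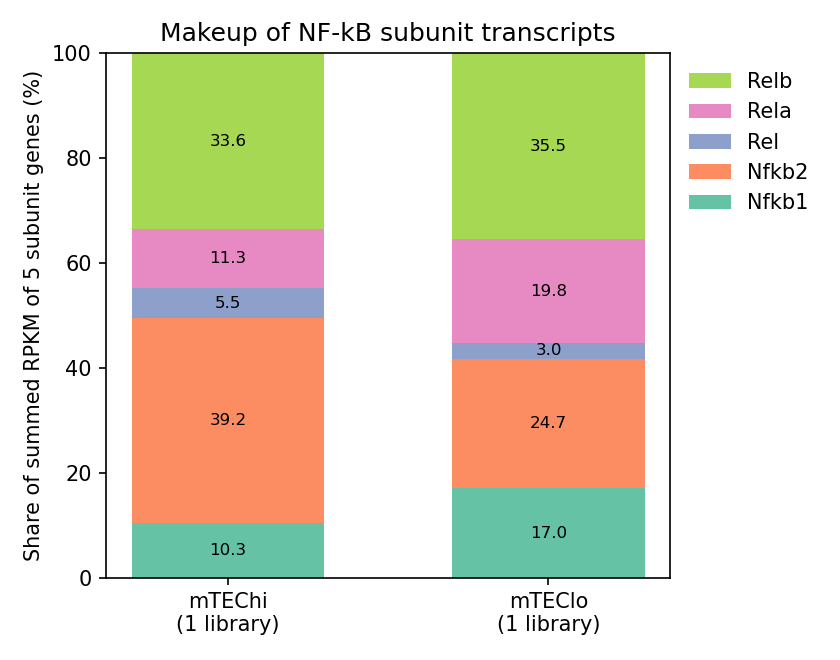
Share (%) of each gene in the summed RPKM of the 5 NF-kB subunit genes in mTEChi (left) and mTEClo (right), 1 library each. Nfkb2 takes 39.2% in mTEChi and 24.7% in mTEClo, while Rela takes 11.3% in mTEChi and 19.8% in mTEClo.

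Nfkbia, which encodes IkB-alpha, the inhibitor that NF-kB itself induces, was by far the most abundant of the 10 genes. It had 728 RPKM in mTEChi, above 99.8% of the genes that passed the filter, and 282 RPKM in mTEClo, above 99.1% of them. Its change was 1.09 (interval 1.07 to 1.13). Nfkbie, which encodes the related inhibitor IkB-epsilon, had 50.9 RPKM in mTEChi and 23.3 RPKM in mTEClo, a change of 0.83 (interval 0.77 to 0.94). Both inhibitor genes were thus higher in mTEChi, with Nfkbia past 2-fold and Nfkbie past it only without scaling. The summed level of the 2 inhibitor genes was 3.46 times that of the 5 subunit genes in mTEChi and 2.5 times in mTEClo.

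The kinase genes were expressed at lower levels, and none was past 2-fold under any scaling. Ikbkb, the canonical kinase, had 22.4 RPKM in mTEChi and 11.4 RPKM in mTEClo (change 0.67, interval 0.60 to 0.81). Its other transcript line had 18.3 RPKM in mTEChi and 9.52 RPKM in mTEClo, with a change of 0.62. Chuk, the kinase shared by both arms and required in the non-canonical one, had 11.8 RPKM in mTEChi and 6.72 RPKM in mTEClo (change 0.48, interval 0.40 to 0.67). The 2 Chuk lines were almost identical in value and implied 4697 and 4703 reads in mTEChi and 489 reads each in mTEClo. Lines of 1 gene can count the same reads and are not treated as separate measurements.

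Map3k14, which encodes NIK, a kinase controlled mainly through the breakdown of its protein, had 17.7 RPKM in mTEChi and 17.0 RPKM in mTEClo. Its change was -0.21 (interval -0.30 to -0.14), and 0.05 without scaling. Relative to Chuk, which it activates, Map3k14 stood at 1.503 in mTEChi and 2.54 in mTEClo, a fold of 0.593 (interval 0.532 to 0.660). In order of the ratio without added RPKM, the counting intervals of neighbours overlapped for Nfkbie with Ikbkb, for Ikbkb with Chuk, for Chuk with Relb, and among Nfkb1, Rela and Map3k14. Those of Rel, Nfkb2, Nfkbia and Nfkbie did not overlap each other.

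**Figure D3:**
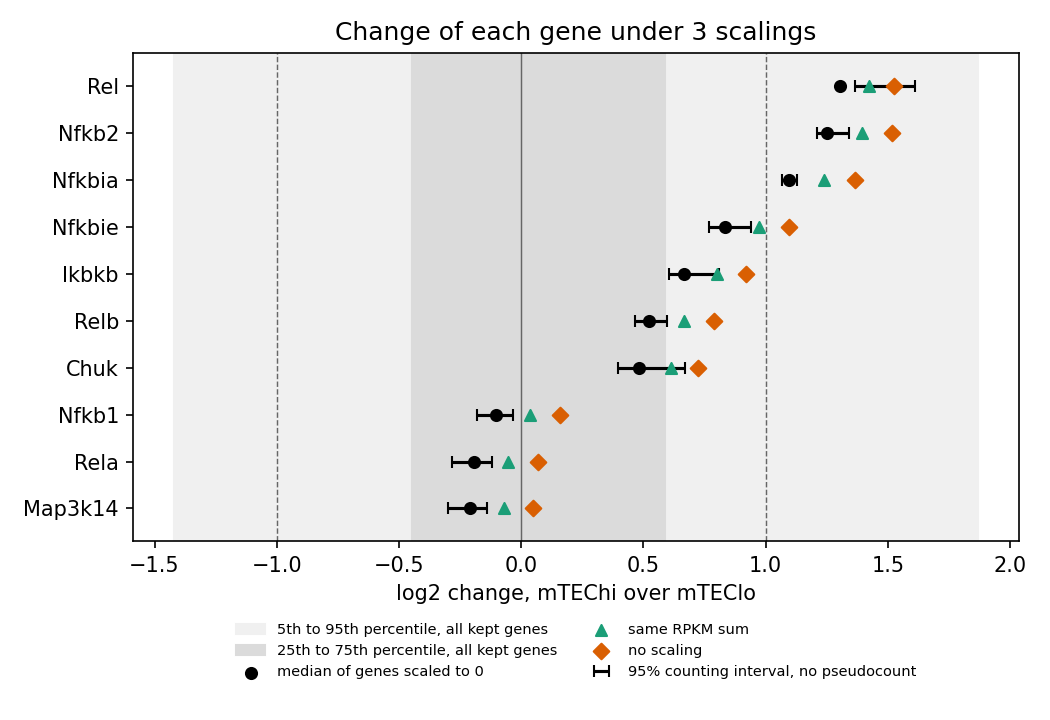
Log2 change, mTEChi over mTEClo, of each gene with the median of well-expressed genes set to 0 (circles), with the same RPKM sum (triangles) and with no scaling (diamonds). Bars are 95% counting intervals of the scaled ratio without added RPKM, and shaded bands hold the middle of all 15590 genes that passed the filter. Rel, Nfkb2 and Nfkbia lie beyond the dashed 2-fold line under all 3, and Nfkb1, Rela and Map3k14 change sign with the scaling.

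Several of these genes are known to be induced by NF-kB, so their promoters were searched for its binding motif. Promoter windows of 300 bases, 250 before to 50 after a transcript start, were taken from RefSeq (GRCm38.p6, a later build than that of the deposited files) for 7 of the 10 genes. The kappa-B consensus was searched on both strands, and overlapping matches were counted. It occurred in 4.51% of all 32851 windows and in 6 of the 9 windows of the 7 genes, of which 3 belong to Nfkb2. By gene, it occurred in at least 1 window of 4 of the 7, Rel, Nfkb2, Nfkbia and Nfkbie, and in none of Rela, Chuk and Map3k14. The looser motif GGGNNNNNCC occurred in 50.8% of all windows and in all 9 windows of the 7 genes. A match is a description of sequence, not of binding. The 150 bases before the start are shown 5′ to 3′ on the gene's strand for the 4 genes with a match and for Rela without one, with matches in capitals:

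Nfkb2 promoter (chr19:46304587-46304736, plus strand): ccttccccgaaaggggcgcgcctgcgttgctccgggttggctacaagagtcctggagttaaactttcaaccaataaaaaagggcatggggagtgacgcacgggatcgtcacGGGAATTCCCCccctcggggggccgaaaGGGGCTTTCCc

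Nfkbia promoter (chr12:55492648-55492797, minus strand): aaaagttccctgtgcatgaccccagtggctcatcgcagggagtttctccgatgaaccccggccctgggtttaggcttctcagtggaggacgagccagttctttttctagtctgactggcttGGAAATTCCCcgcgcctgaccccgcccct

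Nfkbie promoter (chr17:45555550-45555699, plus strand): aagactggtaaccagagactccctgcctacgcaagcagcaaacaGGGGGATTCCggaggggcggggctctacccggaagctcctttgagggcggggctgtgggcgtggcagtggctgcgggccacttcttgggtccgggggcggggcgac

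Rel promoter (chr11:23770970-23771119, minus strand): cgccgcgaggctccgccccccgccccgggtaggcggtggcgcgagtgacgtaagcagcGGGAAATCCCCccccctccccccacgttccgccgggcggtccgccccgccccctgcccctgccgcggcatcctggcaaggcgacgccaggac

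Rela promoter (chr19:5637391-5637540, plus strand): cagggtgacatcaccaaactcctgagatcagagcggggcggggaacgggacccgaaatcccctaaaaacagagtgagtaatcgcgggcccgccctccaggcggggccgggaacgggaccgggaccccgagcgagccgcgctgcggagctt

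The Nfkbia match begins 29 bases before the start, the Nfkbie match 106 bases before it, and the 2 overlapping Rel matches 92 and 91 bases before it. The first Nfkb2 window holds 3 matches, 2 of them overlapping, at 39, 38 and 11 bases before the start. Windows at 2 further Nfkb2 starts hold 2 and 1 matches, of which 1 site is common to both. The 4 genes with a match had changes of 0.83 to 1.31 and the 3 without one had changes of -0.21 to 0.48. Nfkb1 (-0.10), Relb (0.52) and Ikbkb (0.67) had no window, so they could be placed on neither side. Over all genes that passed the filter and have a window, 18.4% of the 790 with the consensus and 15.4% of the 11427 without it were at least 2-fold higher in mTEChi, and the median changes were 0.09 with it and 0.02 without it. The difference among the 7 genes was not tested.

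Partners of these genes in the pathway passed 2-fold in both directions, at counts near the shares over all genes. Of 31 genes for adaptors, further kinases, ubiquitin ligases and atypical inhibitors, 4 were 2-fold higher, 4 were 2-fold lower and the median change was 0.17. Over all genes that passed the filter, 16.1% were 2-fold higher and 9.35% 2-fold lower. The higher partners included 2 further inhibitor genes. Nfkbid, which encodes a nuclear IkB protein, had 22.3 RPKM in mTEChi and 7.10 RPKM in mTEClo (1.29), and Nfkbib, the gene of IkB-beta, had 29.0 RPKM in mTEChi and 9.72 RPKM in mTEClo (1.23). The adaptor genes Traf1 (1.04) and Tank (1.01) were just past 2-fold. The lower partners were Card10 (-1.36), a scaffold protein gene, the adaptor gene Traf5 (-1.24), Nfkbil1 (-1.18) and Nfkbiz (-1.02). Nfkbiz, the gene of the nuclear protein IkB-zeta, had 38.7 RPKM in mTEChi and 65.7 RPKM in mTEClo. Without scaling, Card10 alone stayed 2-fold lower. Traf3 and Birc2, whose products keep NIK low, had changes of 0.18 and 0.38, and Ikbkg, the regulatory subunit of the IKK complex, 0.33.

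Among negative regulators, 2 of 13 passed 2-fold upward and 0 downward, and the median change was 0.11. The upward count is near the share over all genes that passed the filter, 16.1% upward, with 9.35% downward. Tnip1, which encodes a partner of the deubiquitinase A20, had 144 RPKM in mTEChi and 39.2 RPKM in mTEClo (1.58), and its relative Tnip3 had 7.94 RPKM in mTEChi and 1.92 RPKM in mTEClo (1.43). Tnfaip3, the gene of A20 itself, lay on the other side with 39.5 RPKM in mTEChi and 51.3 RPKM in mTEClo (-0.64).

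Receptors that feed the pathway were split. Of 18, 6 were at least 2-fold above mTEClo and 1 was at least 2-fold below, and the median change was -0.12. All genes that passed the filter had shares of 16.1% above and 9.35% below. Cd40 had 61.8 RPKM in mTEChi and 6.61 RPKM in mTEClo (2.80), Tnfrsf8, the gene of CD30, had 26.0 RPKM in mTEChi and 2.67 RPKM in mTEClo (2.68), and Tnfrsf11a, the gene of RANK, was higher by 1.35. Tnfrsf19 (1.31), Tnfrsf9 (1.11) and Tnfrsf13c (1.03) were the others. Levels were low for Tnfrsf19, with 2.19 RPKM in mTEChi and 0.237 RPKM in mTEClo. The same held for Tnfrsf13c, with 2.40 RPKM in mTEChi and 0.552 RPKM in mTEClo. Ltbr, the lymphotoxin beta receptor gene, had 25.1 RPKM in mTEChi and 32.7 RPKM in mTEClo (-0.64). The lower one was Tnfrsf12a, the gene of the TWEAK receptor, with 20.3 RPKM in mTEChi and 65.0 RPKM in mTEClo (-1.90).

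Of 37 textbook NF-kB targets, 14 were 2-fold higher and 4 were 2-fold lower, and their median change was 0.55. The shares over all genes that passed the filter were 16.1% higher and 9.35% lower. The chemokine gene Ccl22 (3.86), the nitric oxide synthase gene Nos2 (3.60), the growth factor gene Csf2 (3.36) and the chemokine genes Ccl5 (3.08) and Cxcl2 (3.004) led the higher targets. Csf2 had 12.1 RPKM in mTEChi and 0.232 RPKM in mTEClo. The latter is below the 1 RPKM added, so the size of its change depends on that addition. Bcl2a1a (2.79), a survival gene with near-identical copies that can share its reads, and Ptgs2 (2.49), the cyclooxygenase gene, followed. Ccl22, like the receptor gene Tnfrsf11a, is also on the list of mature mTEC markers. Il6 went the other way, with 2.82 RPKM in mTEChi and 55.9 RPKM in mTEClo (-4.17). Other targets sat near the midpoint, such as Tap1, a peptide transporter gene, with 59.6 RPKM in mTEChi and 48.1 RPKM in mTEClo (0.03). Besides the dendritic cell, macrophage and B cell markers given with Rel, markers of other cell types also differed between the libraries. Of 10 fibroblast and pericyte markers, 8 were 2-fold lower and 1, Rgs5, higher, and they summed to 196 RPKM in mTEChi and 944 RPKM in mTEClo. All 10 endothelial markers were 2-fold lower, with sums of 19.8 RPKM in mTEChi and 183 RPKM in mTEClo, and none of these 20 markers was at 0 in either library. Of 7 measured erythroid genes, 3 of the 5 that passed were lower and 1 higher, with sums of 359 RPKM in mTEChi and 5580 RPKM in mTEClo. Their part in the lower values of Il6 and the other genes was not tested.

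**Figure D4:**
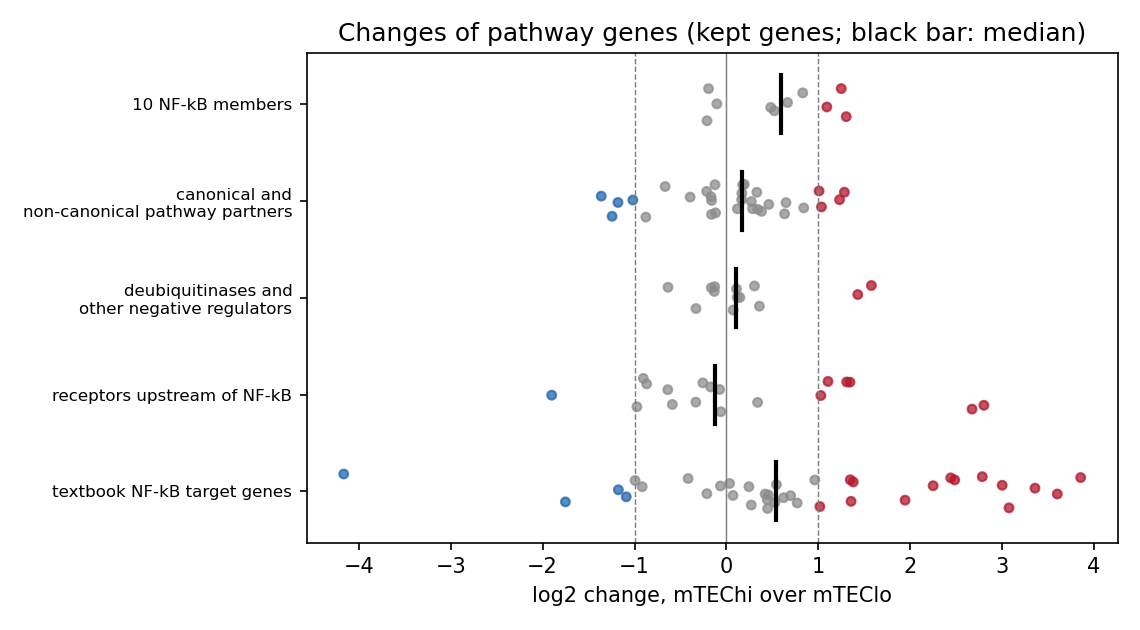
Log2 change, mTEChi over mTEClo, of the 10 NF-kB genes and of 4 lists of pathway genes, 1 point per gene that passed the filter, with the vertical position within a row arbitrary. Red points are at least 2-fold higher and blue points at least 2-fold lower, and the black bars mark medians of 0.59, 0.17, 0.11, -0.12 and 0.55 from top to bottom.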

How the data were processed

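Poly(A)-selected RNA of 2 sorted mTEC populations was sequenced, 1 library each. The authors deposited RPKM values per RefSeq transcript line, and per the submitters' processing notes the tools were bedtools, Bowtie 1.0.0 and CASAVA on mouse build mm9, with the role of each not given in the sources used here. How reads shared by isoforms were counted is likewise not given.

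Of 30794 lines, 30212 took their symbol from the RefSeq table and 184 from GENCODE M21. A gene's value is its line with the highest mean RPKM. Genes had to reach a mean of 0.5 RPKM, and scaling used those at 10 RPKM or above. Depth was recovered from RPKM times transcript length, which rises in steps of 1 read. Among lines with 1 to 10 reads, 76.1% in mTEChi and 65.5% in mTEClo lay within 0.1 of a whole read. Intervals are exact binomial ones for log2 changes and normal ones on the log scale for ratios between genes. All 10 members are named, and from each pathway list the genes past 2-fold, up to the 8 with the largest change, with others chosen after their values were seen. Of the marker lists, Cd68 and Hbb-b1 matched no line and were not analysed here, and some single markers are not reported here. With 2 libraries a gene has 1 difference, so no genes of like pattern are named. The members and lists were chosen with earlier results of these data known. The procedure was tested on simulated data. Alternatives were other scalings, pseudocounts, filters and ways to combine lines. The software was scipy 1.17.1, pandas 2.3.3, numpy 2.4.6 and matplotlib 3.10.9 under Python 3.11.15.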

Additional observations from a re-analysis of the deposited data

How the results depend on the processing

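With 1 library per group, no library could be left out and no paired analysis was possible because each group has 1 library, so the spread between animals or sorts is unknown for every value. Setting the scaling aside raised the median of well-expressed genes by 0.27 on the log2 scale, and scaling to the same RPKM sum raised it by 0.15. Of 70 recomputed changes of the 10 genes, 22 moved by more than the distance from the centre of their counting interval to its end. Of the members past 2-fold, 0 changed sign, and scaling shifts of this size could not have reversed them. Without scaling, genes past 2-fold were 3024 higher and 1011 lower (74.9% higher, against 63.3%), and 1 pathway partner and 2 targets were lower. The higher genes include, with and without scaling, the 829 at 0 in mTEClo that the filter keeps only where they are higher. With 0.1 RPKM added, 2 receptors were lower. With 5 RPKM added, 877 genes were higher and 648 lower, of pathway partners 2 were higher and 0 lower, and 1 negative regulator and 3 receptors were higher. With the filter raised to 5 RPKM, 1010 were higher and 822 lower. Of the lists, 1 negative regulator and 4 receptors were then higher, as fewer genes were counted. Summing transcript lines, which counts the 3 lines of Nfkb2 together, set the share differences, mTEChi minus mTEClo, to 16.5 points for Nfkb2, 1.11 for Rel, -7.01 for Rela and -4.97 for Relb, against 14.5, 2.53, -8.49 and -1.88. Counts of members past 2-fold stayed between 2 and 4 higher and at 0 lower in all of these settings.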
